A study of Mus musculus with 50 samples.

Results

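The genes described here are 41 genes that interferon is known to switch on in mouse cells. They were chosen by name, and 40 of them had a row among the 19224 genes of the deposited count matrix; Mx2 had none under that symbol and is not described further. Mouse haematopoietic stem cells (HSCs) carrying green fluorescent protein from a β-actin-GFP transgene were transplanted, each alone, with 500000 marrow cells of B6-Ly5.2 mice as competitors into lethally irradiated B6-Ly5.2 recipients (9.0 Gy). Marrow or spleen cells were enriched for c-Kit, a growth factor receptor of stem and progenitor cells, and sorted by surface markers or by GFP, so that cells sorted without GFP may be of the donor, the competitor or the host. They were then sequenced cell by cell at 1, 4 and 12 months, in 10, 26 and 14 samples. Spleen was pooled with marrow in 5, 4 and 6 of these, and marrow alone in the rest, by the labels. The cell names in the matrix matched no sample, so recipients, tissues and times were not compared here. All cells were treated as 1 pooled sample, and no p-value is given.

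Interferons bind receptors on the cell surface, and the kinases bound to these receptors phosphorylate STAT proteins. STAT proteins with IRF9 then bind interferon response elements, with the core GAAA, any 2 bases, GAAA, and STAT pairs formed mainly after type II interferon bind the gamma-activated site TTCNNNGAA. The induced genes encode sensors of foreign nucleic acid, enzymes that block translation or degrade RNA, GTPases that attack parasites and viruses, and the factors of the pathway itself. In mouse marrow, interferon is known to bring dormant stem cells into cycle, and stem cells are known to use some of these genes without infection.

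Regions around the start of transcription were searched for both motifs to show what the set has in common beyond its name. RefSeq start regions (GRCm38.p6, 250 bases before to 50 bases after the start) were found for 31 of the 40 genes. The first, called the response element motif below and searched on both strands, was present in 19 of the 31, or 61.3%, against 1079 of the 27025 genes with a start region, or 3.99%. TTCNNNGAA, called the gamma site motif below, was present in 10 of the 31, or 32.3%, against 9.55% of those genes. The following 80-base stretches hold the matches in genes to which the results return. Capitals mark both motifs, the first of which reads TTTC, any 2 bases, TTTC on the other strand, and overlapping matches run together.
Isg15 (chr4:156200846-156200925, minus strand): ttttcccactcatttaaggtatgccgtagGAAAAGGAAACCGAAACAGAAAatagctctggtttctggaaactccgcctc
Ifit1 (chr19:34640759-34640838, plus strand): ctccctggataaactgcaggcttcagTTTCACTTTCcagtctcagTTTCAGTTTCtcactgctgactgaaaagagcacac
Rsad2 (chr12:26456528-26456607, minus strand): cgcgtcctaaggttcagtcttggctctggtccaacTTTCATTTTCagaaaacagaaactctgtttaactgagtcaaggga
Apol9b (chr15:77729003-77729082, plus strand): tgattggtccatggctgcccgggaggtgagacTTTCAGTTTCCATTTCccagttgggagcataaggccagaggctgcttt
Oas1a (chr5:120907498-120907577, minus strand): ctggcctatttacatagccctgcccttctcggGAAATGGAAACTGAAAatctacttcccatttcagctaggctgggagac
These 5 are genes of the antiviral effector group and hold only the response element motif in the stretch shown. In Bst2 and Igtp the gamma site motif lies beside it, and Irf1 has the gamma site motif alone.
Bst2 (chr8:71537555-71537634, minus strand): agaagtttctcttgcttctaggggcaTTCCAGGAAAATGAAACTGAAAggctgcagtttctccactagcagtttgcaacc
Igtp (chr11:58199487-58199566, plus strand): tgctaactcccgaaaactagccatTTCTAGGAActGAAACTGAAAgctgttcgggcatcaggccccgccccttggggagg
Irf1 (chr11:53769888-53769967, plus strand): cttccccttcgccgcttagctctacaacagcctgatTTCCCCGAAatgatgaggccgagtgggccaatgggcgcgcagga
Matches describe letters only. The 19 genes with the response element motif and the 12 without it had median correlations with the other interferon-induced genes of 0.16 and 0.13 over cells, a measure described below.

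Cells with at least 1000 genes counted and at most 10% of counts from mitochondrial genes were kept: 4185 of 4271 cells in 67 libraries. A kept cell typically held 122013 counts and 4186 genes (medians), and library totals ranged between 1665150 and 26184500 counts. No cell name recurred between libraries, although 93 cell barcodes were used in more than 1 library. To compare cells at equal depth, each was thinned at random to 20000 counts, which 3826 cells reached. Of the kept cells, 2421 (57.8%) fell into clusters called HSC-like. In these, 10 of 12 stem cell markers were detected in more than 25% of cells, among them Procr in 90.4% and Mecom in 91.4%. Fgd5 (16.2%) and Ctnnal1 (16.6%) were below that share. The same markers were used to name the class, and they are not particular to it. The cluster called cycling-like below also had 10 of them above 25%. The progenitor genes Cd34 and Flt3 were detected in 83.1% and 38.1% of HSC-like cells. Genes of other lineages give a background for such shares. In thinned HSC-like cells the median over the genes of a list was 0.349% of cells for the T lineage, 0.633% for the B lineage, 3.28% for plasma cells, 3.36% for neutrophils, 4.10% for erythroid cells, 5.63% for macrophages and 7.07% for primary granule genes. Single genes were well above these medians, among them Jchain at 16.3%, S100a8 at 22.6%, Cd79b at 32.0% and Hba-a1 at 34.4%. The highest were Prtn3 at 96.5% and Car2 at 99.6%.

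The interferon-induced genes were widely used in these cells. A thinned cell had a median of 13 of the 40 detected (interquartile range 9 to 16, range 0 to 39, n = 3826 cells), and HSC-like cells also had a median of 13 (range 2 to 39, n = 2290). Only 3 cells had none. Summed over all kept cells the 40 genes held 2548 counts per 1000000 (CPM). Single genes ranged between 3.14 and 213 CPM and between 2.17% and 71.7% of thinned cells. CPM values here were not divided by transcript length, so levels of different genes are not ranked.

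The pathway's own transcription factors were detected in 22.1% to 60.3% of cells. Irf9, the DNA-binding subunit that joins the STAT proteins, was found in 56.6% of cells (95% exact interval 55.0 to 58.1), at 103 CPM. Stat2, its partner, was found in 22.1%, at 30.9 CPM. Irf1, an early target of interferon, was found in 60.3% of cells. Irf7, which amplifies type I interferon production, was found in 34.3%. Over the 56 libraries with at least 10 HSC-like cells, Irf9 in those cells ranged between 29.1 and 189 CPM around a median of 115 CPM, while Irf7 ranged between 8.74 and 214 CPM around 67.6 CPM. No library was at 0 for any of the 4 factors.

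Sensors of foreign nucleic acid were each found in 22.9% to 36.7% of cells. Ddx58, which encodes the RNA sensor RIG-I, was the sensor found in most cells, at 36.7%. Ifih1, which encodes the sensor of long double-stranded RNA, was found in 28.6%. Dhx58, which encodes a regulator of both, was found in 22.9%, and the helicase Ddx60 in 25.5%. Zbp1, a sensor of Z-form nucleic acid that can trigger cell death, was found in 24.9%.

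Enzymes that act on RNA or on translation varied more widely. The oligoadenylate synthetases make the messenger that activates RNase L, and Oas1a, Oas2 and Oas3 were found in 35.4%, 11.4% and 17.5% of cells. Their relatives Oasl1, known in mouse to restrain Irf7, and Oasl2 were found in 10.6% and 49.3%. The exonuclease Isg20 was found in 47.0%, and Eif2ak2, the kinase PKR that stops translation on double-stranded RNA, in 22.0%. Of the Ifit genes, whose proteins bind foreign RNA, Ifit1 was found in 17.1%, Ifit2 in 9.41% and Ifit3 in 3.95%. Ifit3 was at 0 in the HSC-like cells of 11 of 56 libraries, and Ifit1 in those of 1 library.

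The ISG15 system, which tags proteins as ubiquitin does, had 3 genes at 32.2 to 34.4 CPM. Isg15 itself was found in 18.7% of cells, Usp18, the protease that removes it and damps the type I receptor, in 22.7%, and the ligase Trim25 in 22.3%. The ligase Dtx3l and its partner Parp9 were found in 34.5% and 33.4%, and Parp14, another ADP-ribosyltransferase, in 26.9%. Dtx3l and Parp9 lie on opposite strands and overlap by 682 bases in the annotation, and the sources used here do not give the strand setting of the counting, so reads in the shared stretch cannot be assigned to either gene.

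The immunity-related GTPases protect cells against intracellular parasites. Igtp was found in 56.0% of cells, Irgm1 in 54.9%, Iigp1 in 37.6% and Irgm2 in 23.8%. Igtp overlaps the annotated span of Irgm2 on the same strand by 7974 bases, so their counts are not fully separate. The guanylate-binding proteins, a related GTPase family, were found in 56.6% (Gbp7), 48.5% (Gbp2) and 38.3% (Gbp3) of cells. Mx1, an antiviral GTPase, stood at the low end, in 2.17% of cells (95% exact interval 1.73 to 2.68), and was at 0 in the HSC-like cells of 25 of 56 libraries. Mx1 and Ifit3 were below the highest of the other-lineage medians given above. In HSC-like cells Ifit1, Ifit2, Isg15, Trim25, Oas2, Oas3, Oasl1, Eif2ak2, Stat2, Rsad2 and Apol9b were also below S100a8. The shares of these 13 genes alone thus do not set them apart from background. Other single genes of other lineages, such as Cd79b at 32.0% and Hba-a1 at 34.4%, were higher than S100a8. A share above that of S100a8 therefore does not by itself set a gene apart either.

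Bst2, which tethers budding virus to the cell surface, was detected in 71.7% of cells, the highest share of the 40, and Rsad2, the antiviral enzyme viperin, in 21.7%. Rtp4, an interferon-induced receptor chaperone, was found in 53.0%, Ifi35 in 52.9%, Xaf1, a pro-apoptotic factor, in 41.3%, Ifi44 in 31.3% and the apolipoprotein L gene Apol9b in 12.1%. Close copies of Apol9b, the Ifit genes, the Oas genes and the guanylate-binding proteins exist, and the sources used here do not say how shared reads were counted, so these values are uncertain to that extent.

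**Figure D1:**
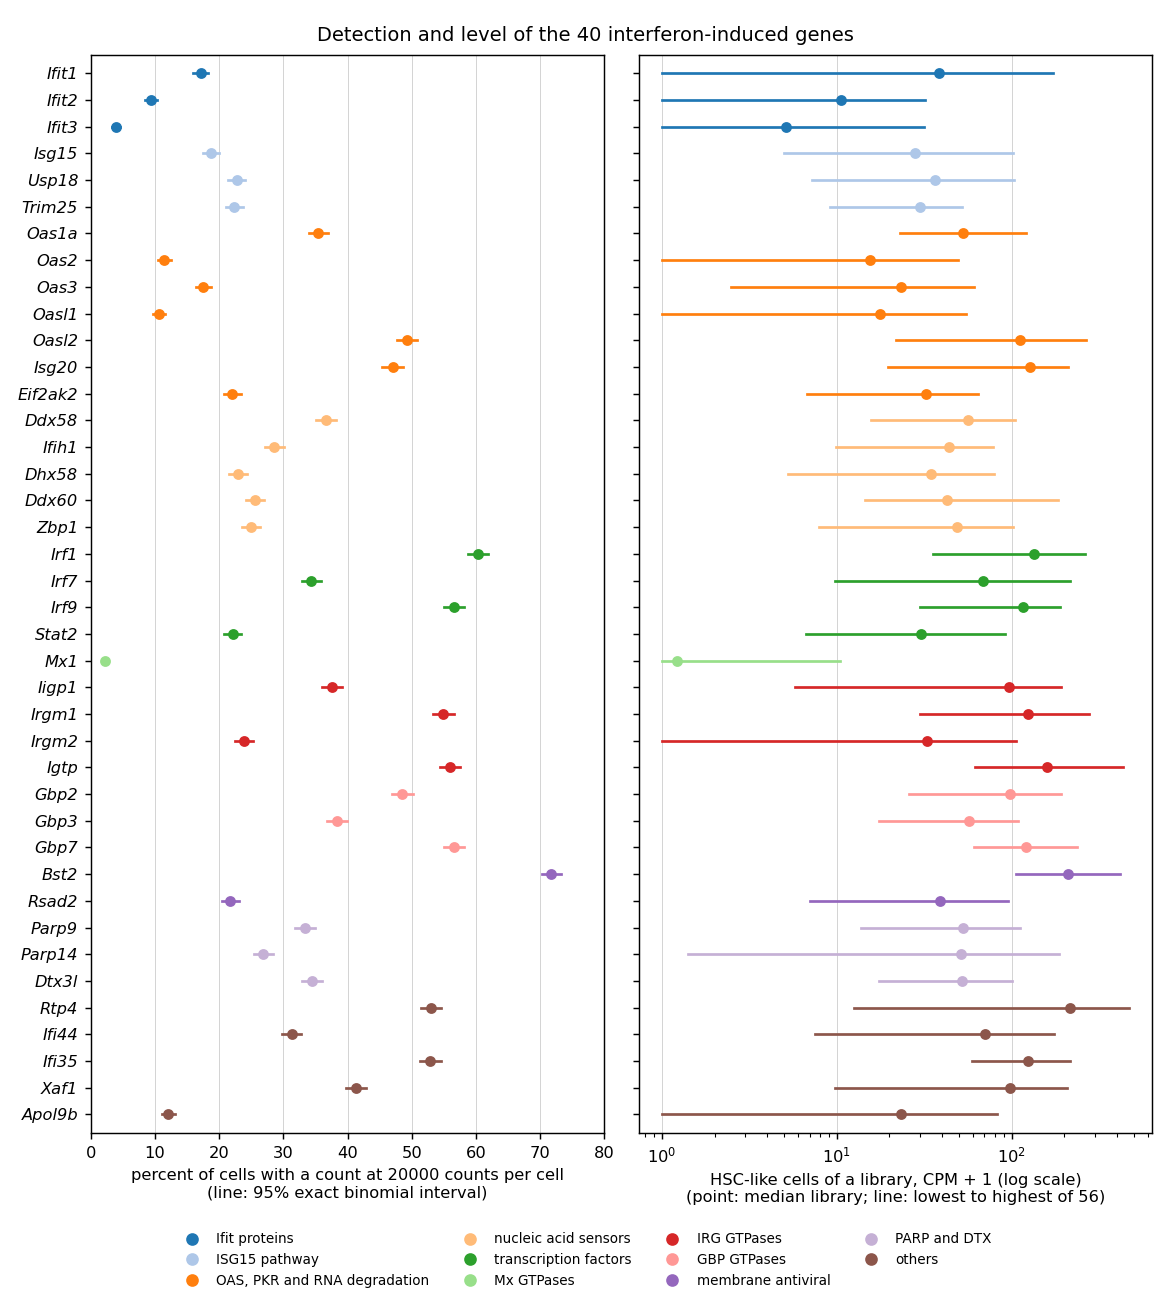
Left, share of 3826 thinned cells with at least 1 count of each gene, with 95% exact intervals; right, CPM + 1 of each gene on a log axis in the HSC-like cells of 56 libraries, as the lowest, median and highest library. Bst2 is at 71.7% and Mx1 at 2.17%, and 32 of the 40 genes are above 0 in every one of the 56 libraries, a share not counted over all genes.

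Within HSC-like cells most of the genes had counts in every library compared. For 32 of the 40 genes no library of the 56 was at 0. The same share over all genes was not counted, so this does not set the genes apart. The highest library exceeded the median library by a median of 2.32-fold over the 40 genes, with the smallest excess for Irf9 (1.64-fold) and the largest for Mx1 (43.7-fold, on a median of 0.215 CPM). Library Lib14, with 21 HSC-like cells, was the highest for 9 of the 40 genes and lay 0.76 above the median library on the log2 scale (median over genes). Libraries Lib87, Lib88, Lib89, Lib86 and Lib85 came next, at 0.35 to 0.52. The lowest was Lib22, with 10 HSC-like cells, at -0.99. Ifit1 shows the spread: 171 CPM in Lib14, a median of 37.6 CPM and 0 in Lib22. The same order of libraries was not computed over all genes, and Lib14 and Lib22 rest on few cells. It therefore does not set the genes of the set apart. The mean number of genes detected per HSC-like cell ranged between 9.50 and 16.8 over 55 libraries, around a median of 13.4.

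The genes were used together, weakly in each pair and clearly in the sum. The variance over cells of the number detected was 3.47 times the value that 40 independently detected genes would give, 2.97 times with detection shares taken within each library, and 2.85 times within 3 bins of cells by genes detected in each library. It was 3.06 times in HSC-like cells. The same ratio was 1.42 for 31 genes of the receptors, signalling steps, upstream sensors and feedback (1.20 within such bins), and 2.88 for 82 other interferon-induced genes (2.35). This ratio depends on the number of genes, so lists of different sizes are not ranked by it. The median pair, which does not add up over genes, was at 0.07 for the 40 genes, 0.01 for the 31 and 0.03 for the 82 (Spearman, library mean removed, over the genes found in at least 5% of cells). The number detected per cell had a Spearman correlation of 0.28 with the number of all genes detected, which share the same library and depth, and 0.03 with the cell's counts before thinning.

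Over cells, all 40 genes were positively correlated with the mean of the other 39 (Spearman on thinned counts, library mean removed, n = 3826 cells), as were 51.6% of 7760 genes outside the set. Ranks were taken over all cells after this removal, so cells without a count still ranked by library. Library differences were thus not fully removed. For Ifit1 and Apol9b such ranks gave 0.25, against 0.09 within libraries, and for Oasl2 and Rtp4 0.25 by both. All correlations with the mean of the genes, and the comparison of lists above, share this limit. Rtp4 was the closest to the rest at 0.39, followed by Oasl2 at 0.32, Irf7 at 0.30, and Iigp1 and Ifi44 at 0.27. By this measure the loosest were Ifit2 at 0.02, Mx1 at 0.06, Trim25 at 0.07, Eif2ak2 at 0.08 and Irf1 at 0.09. For Mx1, found in 2.17% of cells, the many cells without a count limit a rank correlation. By Pearson correlation Mx1 was at 0.19, above Ifit2 (0.07), Trim25 (0.09), Irf1 (0.12) and Eif2ak2 (0.14), so its place depends on the measure. A high detection share did not go with a high correlation in every case: Irf1 was found in 60.3% of cells and Bst2, at 0.16, in 71.7%, while Ifit1, at 0.23, was found in 17.1%.

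Of the 703 pairs among the 38 genes detected in at least 5% of cells, 680 were above 0, 106 were above 0.1 and none was below -0.1 within libraries. The median pair was at 0.06, with a range of -0.03 to 0.25. The strongest pairs ran through Rtp4: 0.25 with Oasl2, 0.24 with Ifi44, 0.22 with Irf7, 0.21 with Xaf1, and 0.19 with both Usp18 and Ifit1. For 20 of the other 37 genes Rtp4 was the closest partner. Genes found in few cells were among them, such as Oasl1, found in 10.6% of cells and at 0.14 with Rtp4.

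The immunity-related GTPases were the closest among themselves. The 6 pairs of Iigp1, Irgm1, Irgm2 and Igtp had a median correlation of 0.15 (0.11 to 0.16), the highest of any role; the next were the 10 pairs of Rtp4, Ifi44, Ifi35, Xaf1 and Apol9b at 0.08. Between these GTPases and other roles, the pairs with the transcription factors and with the Rtp4 group were at 0.09, the 12 pairs with the guanylate-binding proteins at 0.08 and the 8 pairs with the Ifit genes at 0.05. Iigp1 had its highest correlation with Rtp4, at 0.17, and the other 3 had theirs within the family. Irf1 had its highest correlation with Irgm2, at 0.12, and its lowest with Ifi35, at -0.03. Ifit1 and Ifit2, neighbours on chromosome 19, were at -0.01. Overall the 10 pairs whose genes lie within 100000 bases of each other and the 693 other pairs had the same median to 2 decimals, 0.06.

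**Figure D2:**
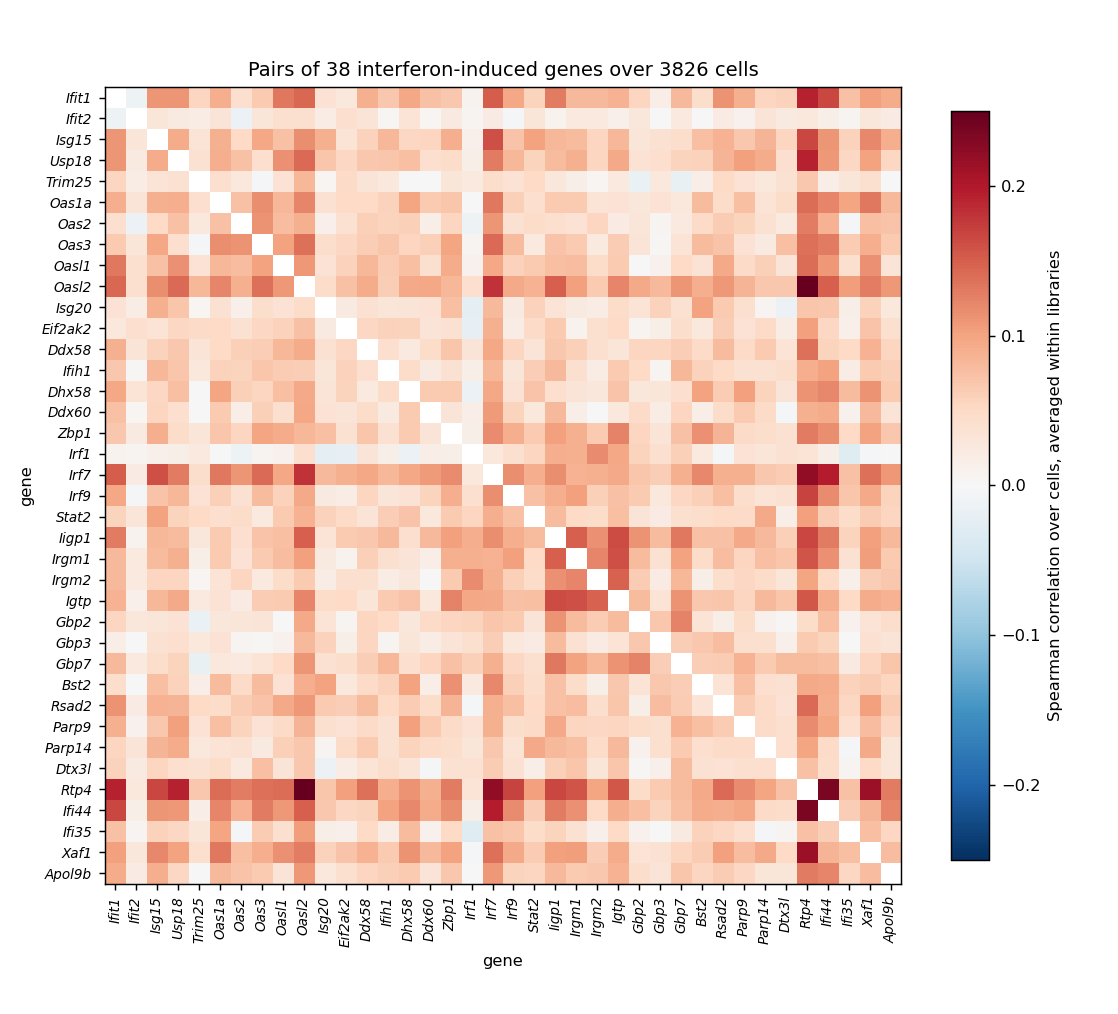
Spearman correlation over cells within libraries for each pair of 38 interferon-induced genes, ordered by role (3826 thinned cells, colour scale). Rtp4, Oasl2, Irf7 and Ifi44 form rows of higher values, up to 0.25 for Oasl2 with Rtp4, and the immunity-related GTPases form a block at 0.11 to 0.16.

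The genes most like the set outside it were other targets of interferon. Among 7760 genes, the 10 highest correlations with the mean of the 40 included Tgtp2 at 0.30, Ifitm3 at 0.30, Tgtp1 at 0.29, Ly6a at 0.26, Gm4951 at 0.26, H2-T23 at 0.21, Ube2l6 at 0.20, Ifi47 at 0.20 and Ifi203 at 0.19. Tgtp1, Tgtp2 and Ifi47 encode GTPases of the immunity-related family, Ifitm3 blocks viral entry, Ube2l6 is the conjugating enzyme of ISG15, and Ly6a encodes Sca-1, a surface marker used in the sort. Tgtp1 and Tgtp2 are near-identical copies, so their counts may not be separate. Of the 10 highest, 8 stood on the list of other interferon-induced genes, which was chosen with earlier results of these data known. On that list 51 of 52 measurable genes were above 0, with a median of 0.12. Of all 7760 genes 51.6% were above 0, with a median of 0.001. The lowest correlations were small: Cfl1 and Crip1 at -0.12, Ran at -0.12, and Pfn1 and Eif5a at -0.13.

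No separate group of cells with the set switched on was seen in the number detected per cell. This number had a single broad peak, with its most frequent value at 13 (338 cells). Because many genes are missed in each cell at this depth, such a count cannot show whether a small group is present. Of the thinned cells, 389 (10.2%, 95% exact interval 9.23 to 11.2) had 20 or more, against 38.7 if the genes were detected independently. At the low end, 227 cells had 5 or fewer, against 7.95. Another step up, 16 cells had 30 or more. They came from 13 libraries and 14 of them were HSC-like, and 63 of 67 libraries had a cell with 20 or more. Among detecting cells, the 90th percentile of CPM exceeded the median by 2.70-fold (Ifi35) to 11.1-fold (Mx1), with a median of 3.71-fold over genes. The 5% of cells with most counts of a gene held between 23.0% (Bst2) and 100% (Ifit3 and Mx1) of its thinned counts, the last because these genes were found in fewer than 5% of cells.

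Cells sorted by the Ifit genes showed how the others follow. None of Ifit1, Ifit2 and Ifit3 was detected in 2782 cells, 1 in 931, 2 in 105 and all 3 in 8 cells. Going up these steps, the mean number detected of the other 37 genes was 11.8 ± 4.51, 14.3 ± 4.97, 18.9 ± 5.99 and 28.0 ± 6.59 (SD over cells). The median number of all genes detected hardly moved over the same steps, at 3042, 3079, 3063 and 2904. The 8 cells with all 3 came from 8 libraries.

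In the 113 cells with 2 or 3 Ifit genes, all 37 other genes had a higher mean level than in the 2782 cells with none, against 44.0% of 7772 genes outside the set. The detection share was higher for 36 of 37 (background 56.7%) and the level among detecting cells for 35 of 37 (background 36.5%). Irf7 was detected in 73.5% of the cells with 2 or 3 Ifit genes, at 434 CPM among detecting cells, against 30.9% and 187 CPM in cells with none. Rsad2 was detected in 46.9% of them at 412 CPM, against 18.9% at 189 CPM. Usp18 was detected in 48.7% at 349 CPM, against 20.1% at 144 CPM. Oasl1 was detected in 38.9%, against 8.66%, and Mx1 in 13.3%, against 1.44%. Irf1 differed least, detected in 59.3% at 279 CPM, against 60.0% at 232 CPM. Trim25 and Ifih1 were detected in more of the cells with 2 or 3 Ifit genes but not at higher levels among detecting cells, at 142 CPM against 148 CPM and at 141 CPM against 144 CPM.

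Both parts of the difference, more cells and more per cell, were present. On the log2 scale the median gene was higher by 0.81 in detection share and by 0.54 in level among detecting cells, against 0.03 and -0.07 over all other genes. Detection depends on level at this depth, since between 10.3% (Bst2) and 45.0% (Mx1) of detecting cells held only 1 count before thinning, so the 2 parts are not independent. Counting a gene as detected at 3 or more counts moved the values to 1.56 and 0.33. This limit applied to the Ifit genes too, so the cells were grouped anew. The 0.33 also includes counts of cells below the limit, so it is not a level among detecting cells. In HSC-like cells alone, at 1 or more counts, the 2 parts were 0.76 and 0.50.

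Cells were also split by the number of the other 39 genes detected, 21 or more against 8 or fewer. All 40 genes had a higher mean level and a higher detection share in the cells with 21 or more, against 54.5% and 87.8% of all other genes, and 30 of 40 had a higher level among detecting cells, against 12.3%. Cells with more genes detected are favoured by such a split for any gene, which the background of 87.8% shows. Over the steps of 8 or fewer, 9 to 12, 13 to 16, 17 to 20 and 21 or more other genes, Ifit1 was detected in 7.96%, 11.2%, 17.1%, 27.1% and 48.4% of cells. Its level among detecting cells was 175, 165, 162, 191 and 341 CPM at the same steps, so it differed mainly at the top one. Ifit2 was detected in 6.38%, 9.34%, 9.59%, 10.6% and 14.7%. The steps mix classes of cells. B-lineage-like and plasma-cell-like cells, described below, had 4.98 and 8.30 genes of the set on average, against 13.7 in HSC-like cells. How much of the difference between steps goes with class was not tested, and this split was not repeated in HSC-like cells alone.

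**Figure D3:**
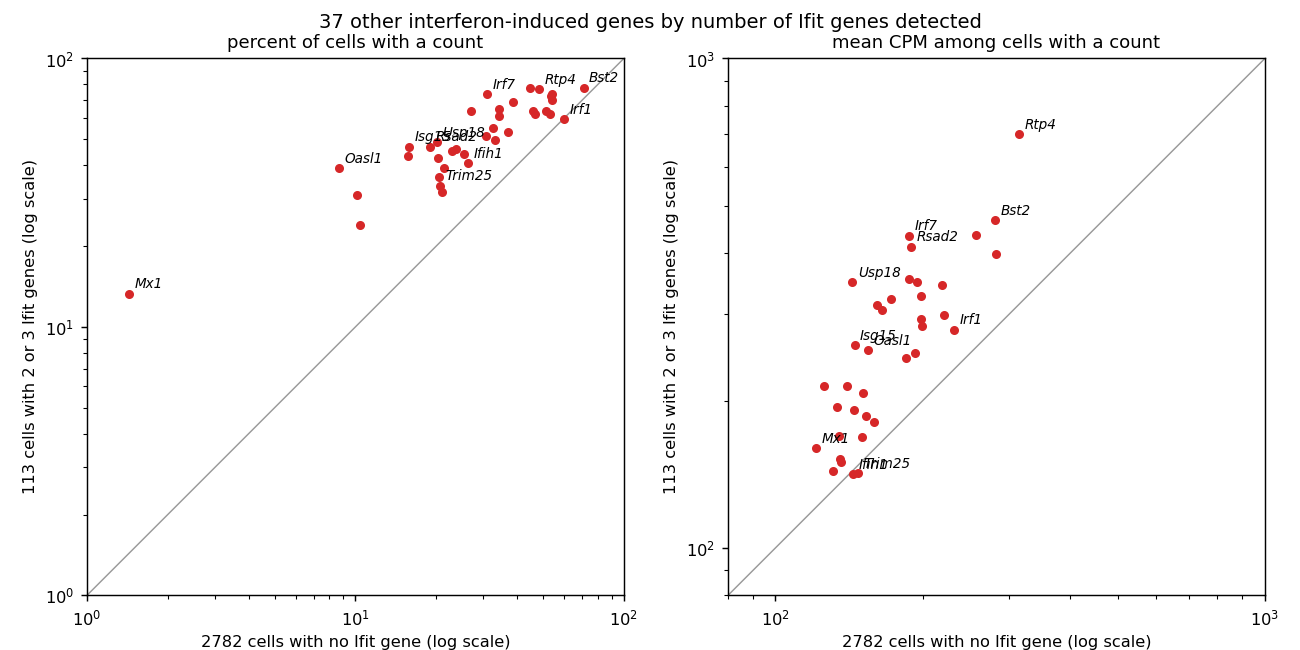
Each of 37 interferon-induced genes (points) on log axes, in the 113 thinned cells with 2 or 3 Ifit genes detected (vertical) and in the 2782 cells with none (horizontal): share of cells with a count and mean CPM among detecting cells, with a line of equal values. Irf7 is at 73.5% against 30.9% of cells, and Irf1 at 59.3% against 60.0%.

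Stem cell and cycle genes were compared between stem cells high in the set and the rest. The 263 HSC-like cells with 20 or more genes detected had Procr in 82.9% (95% exact interval 77.8 to 87.2), against 78.7% (76.8 to 80.5) of the 2027 with fewer. Slamf1 was detected in 23.6% of them, against 22.9%, and Mecom in 79.1%, against 76.0%. The proliferation gene Mki67 was detected in 4.56% (2.38 to 7.83), against 6.27% (5.25 to 7.41). The intervals, which cover counting error only, overlapped for these 4 and for the other 16 stem cell and cycle genes compared, which does not show that the cells are alike. In level, stem cell genes went both ways, more of them lower than higher. Fgd5 was at 8.75 CPM against 14.9 CPM and Ctnnal1 at 8.17 CPM against 14.5 CPM. Procr was at 333 CPM against 297 CPM and Sult1a1 at 362 CPM against 334 CPM. Cycle genes also went both ways, with Cenpf at 8.75 CPM against 4.96 CPM and Ccnb1 at 5.32 CPM against 7.08 CPM. These differences were not tested.

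HSC-like cells were compared with 5 named classes of other cells, from clusters made without the interferon genes. Ratios are log2 of summed CPM with a pseudocount of 1 CPM, for genes that reached a log2 CPM of 4 in the class or in HSC-like cells.

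Cycling-like cells (241 cells, median 257133 counts) had lower levels of most of the genes. The median of 37 genes was -0.84 in cycling-like over HSC-like cells, against -0.07 for all genes. At least 2-fold lower were 16 of 37 (43.2%, background 5.74%), and at least 2-fold higher were 0 (background 7.57%). Ifit1 was at 3.25 CPM in cycling-like cells, against 38.4 CPM in HSC-like cells, Ifi44 at 13.1 CPM against 71.2 CPM, and Iigp1 at 25.4 CPM against 101 CPM. Apol9b and Irgm2 were next, at -1.70 and -1.63. Ifi44 was lower in cycling-like cells in 11 of the 11 libraries with at least 5 cells of both classes, Iigp1 in 10 and Ifit1 in 9. These genes were named for their low ratios in this class, and most of these libraries held few cycling-like cells. How many of all genes were lower in as many libraries was not counted. At the other end, Trim25 was at 33.1 CPM against 29.4 CPM, Eif2ak2 at 31.3 CPM against 35.2 CPM, Oas1a at 41.0 CPM against 54.4 CPM, Dtx3l at 39.1 CPM against 52.9 CPM and Bst2 at 168 CPM against 236 CPM. Fewer genes of the set were detected per thinned cycling-like cell, 11.8 on average against 13.7, while more genes in all were detected, a median of 3649 against 3005. Library Lib22 held 51 of the 241 cells, and without it 10 of the genes were at least 2-fold lower.

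Plasma-cell-like cells (77 cells, median 67999 counts) held most of the genes at low levels and a few at high ones. The median of 37 genes was -1.50, against -0.38 for all genes. At least 2-fold lower were 21 of 37 (56.8%, background 29.4%) and at least 2-fold higher were 2 (5.41%, background 13.9%). Ifit1 had 3 counts in plasma-cell-like cells (0.348 CPM, 95% exact Poisson interval 0.0717 to 1.02), against 38.4 CPM in HSC-like cells. Ifi44 was at 1.97 CPM against 71.2 CPM, Iigp1 at 3.71 CPM against 101 CPM, Oasl2 at 5.91 CPM against 115 CPM and Gbp2 at 6.38 CPM against 103 CPM.

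The 2 genes that were higher in plasma-cell-like cells were Isg20 and Zbp1. Isg20 was at 790 CPM and in 90.9% of thinned plasma-cell-like cells, against 131 CPM and 47.4% of HSC-like cells. In the 5 libraries with at least 5 cells of both classes, Isg20 was at 746, 523, 732, 669 and 691 CPM in plasma-cell-like cells, against 98.9, 156, 132, 92.6 and 186 CPM in their HSC-like cells. The 2 classes did not overlap in Isg20 over these libraries, each with 5 to 8 plasma-cell-like cells. Isg20 was named for its high ratio in this class, and how many of all genes were apart in the same way was not counted. Zbp1 was at 280 CPM and in 71.2% of cells, against 52.4 CPM and 25.4%. By library Zbp1 was at 156, 174, 265, 279 and 53.2 CPM in plasma-cell-like cells, against 24.9, 27.7, 58.5, 97.3 and 52.0 CPM, so that in 1 of the 5 libraries the classes were nearly level. Trim25 (48.5 CPM against 29.4 CPM), Bst2 (274 CPM against 236 CPM) and Stat2 (28.7 CPM against 31.6 CPM) were nearer to the HSC-like cells.

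B-lineage-like cells (72 cells) had the fewest genes of the set per thinned cell, 4.98 on average against 13.7 in HSC-like cells. They were also the shallowest class, with a median of 33977 counts and, after thinning, 1697 genes detected against 3005. No library held at least 5 cells of both classes, 42 of the 72 cells came from 1 library, and 0 comparisons within libraries were possible, so class and library cannot be told apart. The median of 37 genes was -1.50, against -0.23 for all genes, with 22 at least 2-fold lower (59.5%, background 27.1%) and 1 at least 2-fold higher (2.70%, background 15.1%). Iigp1 was at 2.33 CPM in B-lineage-like cells, against 101 CPM, Oasl2 at 4.08 CPM against 115 CPM and Irf7 at 3.79 CPM against 77.4 CPM. Without the library with most of the class, Oasl2 and Irf7 were lower still, at -5.68 and -5.11 on the log2 scale. Ifih1 had 2 counts and Apol9b 1 count in this class, and the counts of Ifih1 were all in that library. The gene that was higher, Parp14, was at 119 CPM against 55.7 CPM, and without that library its ratio turned to -0.73. Ddx58 (110 CPM against 56.9 CPM), Stat2 (37.9 CPM against 31.6 CPM), Rsad2 (42.3 CPM against 38.8 CPM) and Oasl1 (19.8 CPM against 18.2 CPM) were the next highest, and without the same library Oasl1 was at -0.49. Neutrophil RNA was widespread in these thinned cells, with S100a8 in 85.2%, and its part in the values was not tested.

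**Figure D4:**
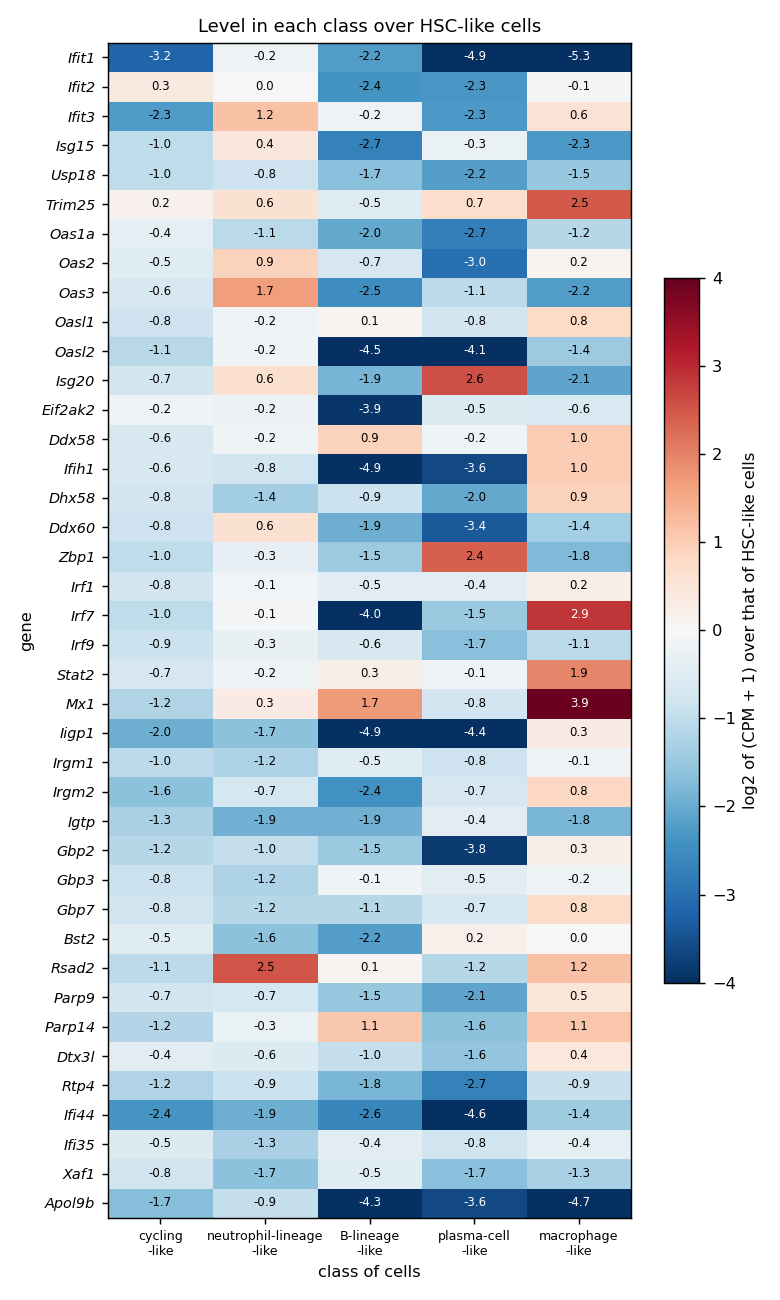
Log2 ratio of each of 40 interferon-induced genes (rows) in 5 classes (columns) over HSC-like cells, of CPM + 1, colours limited to the range of -4 to 4; Ifit1 and Apol9b had 0 counts in macrophage-like cells, so their ratios there depend on the pseudocount. Isg20 at 2.59 and Zbp1 at 2.40 stand out among low values in plasma-cell-like cells, and Mx1 at 3.91 and Irf7 at 2.87 in macrophage-like cells.

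Neutrophil-lineage-like cells (101 cells) had a mixed pattern. The median of 37 genes was -0.55, against -0.28 for all genes, with 11 at least 2-fold lower (29.7%, background 25.7%) and 2 at least 2-fold higher (5.41%, background 21.1%). Both shares were thus near or below those of all genes tested. Rsad2 was at 226 CPM in neutrophil-lineage-like cells, against 38.8 CPM in HSC-like cells, and Oas3 at 78.9 CPM against 24.0 CPM. Oas2 (32.1 CPM against 16.5 CPM), Isg20 (203 CPM against 131 CPM) and Trim25 (45.9 CPM against 29.4 CPM) followed. The lowest were Ifi44 at 17.8 CPM against 71.2 CPM, Igtp at 43.7 CPM against 168 CPM, Iigp1 at 31.4 CPM against 101 CPM, Xaf1 at 31.5 CPM against 101 CPM and Bst2 at 75.8 CPM against 236 CPM.

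The neutrophil-lineage-like class was made of 2 kinds of libraries. Of its 99 thinned cells, 44 had 8 or fewer genes of the set detected, 46 had 12 or more and 9 lay between. In the libraries with 18 and 15 thinned cells of the class, the median was 15.5 and 16 genes of the set, and none of these cells had 8 or fewer. In the other 4 libraries with at least 5 such cells, the median was 4 or 5, and 41 of 48 cells had 8 or fewer. The number of all genes detected differed in the same way between the libraries, with medians of 3509 and 4009 in the first pair and of 1750 to 1903 in the others. Over the 99 cells, its Spearman correlation with the number of the set was 0.72, and it was 0.33 within the cells with 12 or more and 0.02 within those with 8 or fewer. The secondary granule genes Ltf, Camp and Ngp were at 3572, 8242 and 6788 CPM in cells with 12 or more, against 8640, 16115 and 14803 CPM in cells with 8 or fewer. The primary granule genes Mpo and Elane went the other way, at 526 and 245 CPM in cells with 12 or more, against 94.3 and 52.3 CPM in cells with 8 or fewer. Library, number of genes detected and granule genes moved together, and which of them the difference goes with cannot be told apart.

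By library, Rsad2 was at 412 and 239 CPM in the neutrophil-lineage-like cells of the first pair, in 14 of 18 and 14 of 16 cells, and at 1.28, 22.6, 67.9 and 87.9 CPM in the others. The few HSC-like cells of the first pair, 6 and 5 cells, were at 43.8 and 7.16 CPM. Bst2 was at 67.0 and 129 CPM in the neutrophil-lineage-like cells of that pair, against 214 and 190 CPM in HSC-like cells of the same libraries, and at 2.56 to 12.4 CPM in the other 4.

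**Figure D5:**
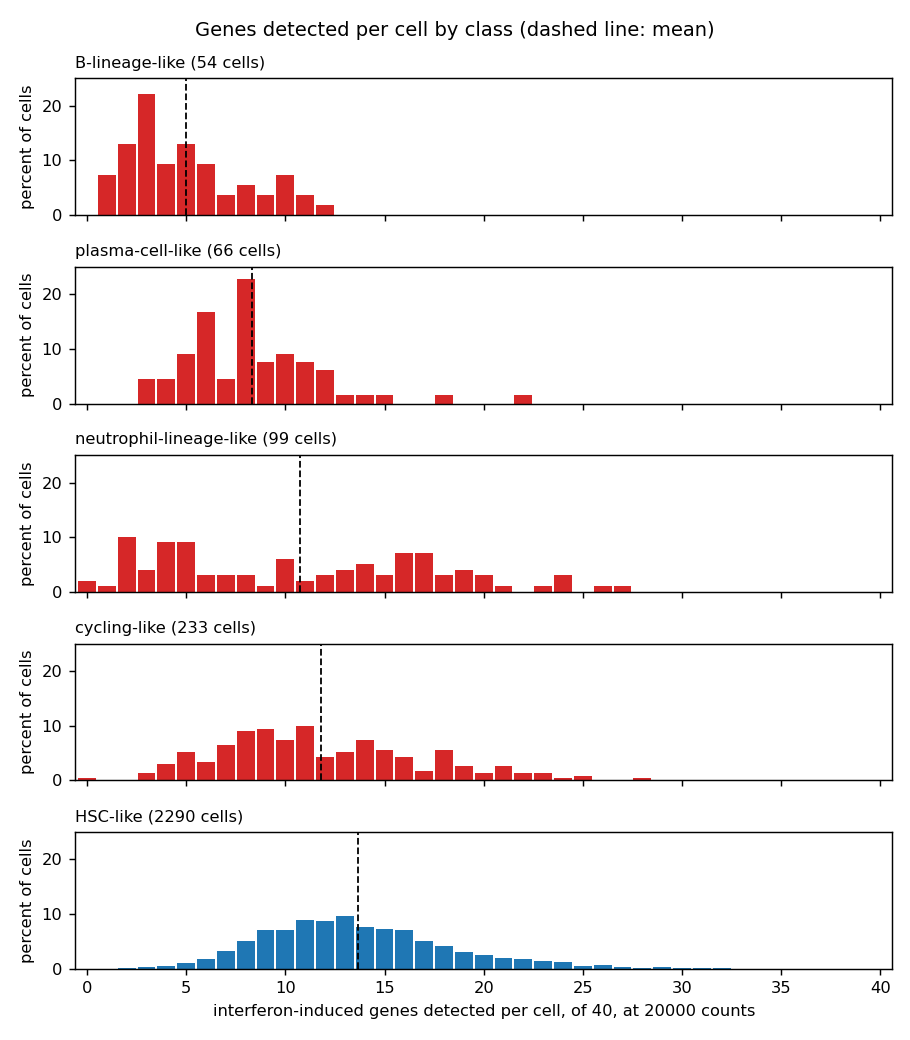
Number of the 40 interferon-induced genes detected per thinned cell, as a percent of cells of each class: B-lineage-like 54, plasma-cell-like 66, neutrophil-lineage-like 99, cycling-like 233 and HSC-like 2290 cells. HSC-like cells form a single broad peak around 13, and neutrophil-lineage-like cells lie in 2 groups, 44 cells at 8 or fewer and 46 at 12 or more.

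Macrophage-like cells numbered 26, of which 18 came from 1 library, and no library held at least 5 cells of both classes. The median of 38 genes was -0.06, against -0.24 for all genes, with 14 at least 2-fold lower (36.8%, background 33.0%) and 8 at least 2-fold higher (21.1%, background 27.7%). Mx1 was at 42.5 CPM and in 34.8% of thinned macrophage-like cells, against 1.89 CPM and 1.53% of HSC-like cells. Irf7 was at 572 CPM and in 87.0%, against 77.4 CPM and 34.8%. Trim25 was at 165 CPM against 29.4 CPM, and Stat2 at 124 CPM against 31.6 CPM. Parp14, Ddx58 and Ifih1 were higher by 1.11, 1.03 and 1.00 on the log2 scale. Rsad2 was at 89.7 CPM against 38.8 CPM, but its ratio turned to -3.42 without the library with most of the class. In the 2 libraries with at least 5 such cells, Mx1 was at 37.2 and 116 CPM and Irf7 at 594 and 242 CPM, both above the HSC-like cells. Without the larger library Trim25 was at 0.46, Irf7 at 1.94 and Mx1 at 5.25 on the log2 scale.

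Macrophage-like cells had 0 counts of Ifit1 and of Apol9b, which allows up to 0.747 CPM of each (95% exact Poisson interval), against 38.4 and 25.2 CPM in HSC-like cells. Isg15 was at 5.67 CPM against 32.1 CPM, Oas3 at 4.25 CPM against 24.0 CPM and Isg20 at 29.8 CPM against 131 CPM. These 3 rested on the larger library, and without it their ratios of -2.31, -2.25 and -2.10 became -0.72, -4.64 and -4.35, of which that of Oas3 depends on the pseudocount because no count of it was left.

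Of the unnamed clusters, 3 are described, chosen after their values were seen. Cluster 18, with the dendritic cell genes Xcr1 and Batf3 among its leading genes, had Mx1 at 28.1 CPM and in 19.6% of thinned cells, against 1.89 CPM and 1.53% of HSC-like cells, and Irf7 at 184 CPM against 77.4 CPM. It had Rtp4 at 34.6 CPM, against 224 CPM. In cluster 18, 15 of 38 genes were at least 2-fold lower (39.5%, background 22.0%) and 4 at least 2-fold higher (10.5%, background 18.7%). Cluster 8, led by T-cell genes, had Mx1 at 19.3 CPM, but in only 3.52% of thinned cells. Cluster 16, of which 42 of 54 cells came from 1 library, was the only one of the 13 classes and clusters compared with a median above 0, at 0.21 over 37 genes. In the 1 library with at least 5 cells of both this cluster and the HSC-like class, its median was -0.002.

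The rest of the pathway was measured from lists of its parts. Of 21 interferon genes, 8 had a row and none reached 5 CPM; together they held 941 counts in 66 of 4185 cells. Ifng, type II interferon, had 521 of these counts in 28 cells, 13 of them in cluster 8 and none among HSC-like cells. Ifnz had 335 counts in 23 cells, 17 of them HSC-like. The receptor chains were present: Ifnar1 at 45.2 CPM, Ifnar2 at 63.3 CPM, Ifngr1 at 139 CPM, Ifngr2 at 44.4 CPM and Il10rb at 62.7 CPM, while Ifnlr1, the chain specific to type III interferon, was at 0.731 CPM. Their correlations with the mean of the 40 genes were between 0.01 and 0.05 for the 5 chains above 5 CPM. Of the signalling genes, Stat3 was at 0.03, Jak1 at 0.02, and Jak2 and Tyk2 at 0.01.

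Among the upstream sensors and adaptors, 10 of 13 measured genes reached 5 CPM. Tmem173, which encodes the adaptor STING, was at 0.07, Aim2 and Tbk1 at 0.05, Mavs, Irf5 and Myd88 at 0.03, Ikbke at 0.02 and Irf3 at 0.00. Of the 8 measured genes on the feedback list, Samhd1, which depletes nucleotides, was at 0.12, the RNA editor Adar at 0.09 and Socs1, an inhibitor of the receptor kinases, at 0.07, and the other 5 were between 0.02 and 0.05.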

How the data were processed

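Single-cell RNA-seq of sorted marrow and spleen cells was analysed from the deposited table of whole-number counts per gene and cell. Per the submitters' processing notes, the authors used Trimmomatic 0.36, HISAT2 2.1.0 and HTSeq 0.9.1 on GRCm38, and the labels describe a modified Smart-seq2 (STRT-seq) protocol with enrichment of 3′ ends. Whether the deposited counts are reads or molecules is not stated, and PCR copies are not independent molecules, so exact intervals cover counting error only. Another 17 columns, of 1 library, were not used.

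Here, counts were converted to CPM or thinned to 20000 per cell with a fixed seed (numpy 2.4.6). Clusters (scanpy 1.11.5, leidenalg 0.10.2, 2000 variable genes, 30 components, 15 neighbours, resolution 1) left out the interferon genes and were named from marker lists by a rule set after the clusters were seen. No doublet caller was run; the labels describe sorting of each cell alone with gates against doublets. The measures were tested on simulated data. The genes and lists were chosen with earlier results of these data known. Outside the set, the text names the 10 highest and 5 lowest correlates, the 5 highest and 5 lowest genes of the set per class, the pathway genes at 5 CPM or more up to 8 per list, and a few chosen after their values were seen; 1 gene that this rule names is not reported here. GENCODE release 21 gave positions for 19071 genes. Alternatives covered depth, detection limit, cell filter, libraries, clustering and scaling. Start regions of 9 genes were not analysed here. With the cells pooled there was nothing to test over, and no test was run.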

Additional observations from a re-analysis of the deposited data

How the results depend on the processing

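The number of genes of the set detected per cell depends on depth and detection limit: the mean of 13.0 at 20000 counts became 15.9 at 50000 counts and 6.90 with at least 3 counts required. The variance ratio stayed between 2.85 and 3.64 over 7 alternatives and the median pair correlation between 0.06 and 0.07. The gain in detection share with Ifit genes (0.81) was 1.56 with at least 3 counts required, of the Ifit genes too, and 0.56 to 0.77 otherwise. Members lower by 2-fold in cycling-like cells (16) numbered 8 at resolution 2, 10 with at least 2000 genes counted, 10 with a pseudocount of 5 CPM and 10 without the library with most of the class. In macrophage-like cells (14) they numbered 3 with the members used for clustering, 1 at resolution 2 and 2 with at least 2000 genes counted, where the class grew to 74, 100 and 111 cells, against 26. The median of B-lineage-like cells (-1.50) was -0.95 as a mean over cells of CPM. Without the library with most of the class, Parp14 in B-lineage-like cells turned to -0.73 and Rsad2 in macrophage-like cells to -3.42; the causes were not tested. No cycling-like class was found with the members used or at resolution 0.5, and no B-lineage-like class at resolution 0.5 or with at least 2000 genes counted. The 3 classes that every clustering held, neutrophil-lineage-like, plasma-cell-like and macrophage-like, kept a median below 0 in each alternative run. All genes tested also had a median below 0 in these classes, at -0.28, -0.38 and -0.24. The sign alone thus does not set the genes of the set apart. The macrophage-like median stayed between -0.16 and -0.002, above that of all genes in the main run. The 2 libraries with at least 5 neutrophil-lineage-like and 5 HSC-like cells had medians of -0.56 and 0.06. The alternatives added after seeing the data were the correlation within libraries, the bins by genes detected, the removal of 6 libraries and the clusters at 2000 genes. A gene of the set at low counts is missed in most cells at this depth. No paired analysis was possible because cells could not be matched to the replicate numbers of the labels; classes were set side by side within libraries instead.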
